A study of Rattus norvegicus with 9 samples.

Results

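The blood transcriptome of rats that had swum to exhaustion and then had a stroke was set against that of sham-operated rats. Of the 9 arrays in the series, the 6 of these 2 groups were used, 3 QDBS arrays and 3 sham arrays. QDBS is the study's name for the qi-deficiency blood stasis model. Male Sprague-Dawley rats of this group swam to exhaustion once a day for 21 days and then had the middle cerebral artery closed with a filament for 2 h (middle cerebral artery occlusion, MCAO). Sham rats, also male Sprague-Dawley, had the surgery without a filament being put in, and no swimming is stated for them. Blood from the abdominal aorta was taken at 24 h of reperfusion in both groups, and each array is labelled as a biological replicate. The other 3 arrays, YDBS, came from rats given hydrocortisone at 45 mg/kg for 13 days and epinephrine at 0.36 mg/kg for 1 day before MCAO. They entered the fit to add to the estimate of the spread and are compared directly with QDBS once, at the end. No group swam without MCAO or had MCAO without a pretreatment, so swimming and stroke cannot be told apart here.

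Whole blood RNA comes from erythroid cells that still hold RNA, from platelets and from white cells. Lymphocytes carry antigen receptors, natural killer cells and cytotoxic T cells kill through perforin and granzymes, and monocytes and neutrophils take up microbes and debris. Platelets have no nucleus and carry transcripts from megakaryocytes. Genes for albumin, fibrinogen and urea cycle enzymes are known chiefly from the liver, and any signal from them in blood is low. After a stroke, blood leukocytes are known to shift in number and in activity, and forced exercise acts on the same cells. In blood RNA measured as a whole, fewer cells of a type and less RNA per cell cannot be told apart.

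Signals were on the log2 scale after robust multi-array averaging (RMA), for 18166 genes of which each had 1 symbol and was read from its brightest transcript cluster. A gene was called when the limma adjusted p (Benjamini-Hochberg over all 18166 genes) was under 0.05 and the difference of the means passed 1 on the log2 scale, which is a fold of 2. By this rule 1747 genes rose in QDBS blood (9.62%) and 247 fell (1.36%). The median log2 difference of called genes was 1.43 among those that rose and -1.23 among those that fell. Folds over 4 were found for 277 genes that rose and 21 that fell, and folds over 8 for 19 that rose and 4 that fell. All but 8 called genes had QDBS and sham arrays that did not overlap. Over all genes, the QDBS arrays lay above every sham array for 4141 genes and below every sham array for 5680.

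The calls were unevenly spread over the range of signal. With the genes cut into 5 equal bins by mean signal, 0.110% rose and 0.440% fell in the dimmest bin, while 21.6% rose and 2.84% fell in the brightest. The brightest bin began at a mean of 6.10. For lists of bright genes the share over all genes is thus a low mark. The median log2 difference was -0.15 over all genes, -0.25 in the dimmest bin and 0.32 in the brightest. Array medians over transcript clusters were 3.99 to 4.05 in QDBS and 4.15 to 4.21 in sham, while the 75th percentiles were 5.55 to 5.57 in QDBS and 5.28 to 5.37 in sham. A signal here is relative to the whole array, and the arrays of the groups differed in the shape of their distributions, and the number of genes that fell depended on how the arrays were centred. Centred on the 75th percentile, 1254 genes rose and 618 fell. With the median as the centre, 2191 rose and 147 fell.

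**Figure D1:**
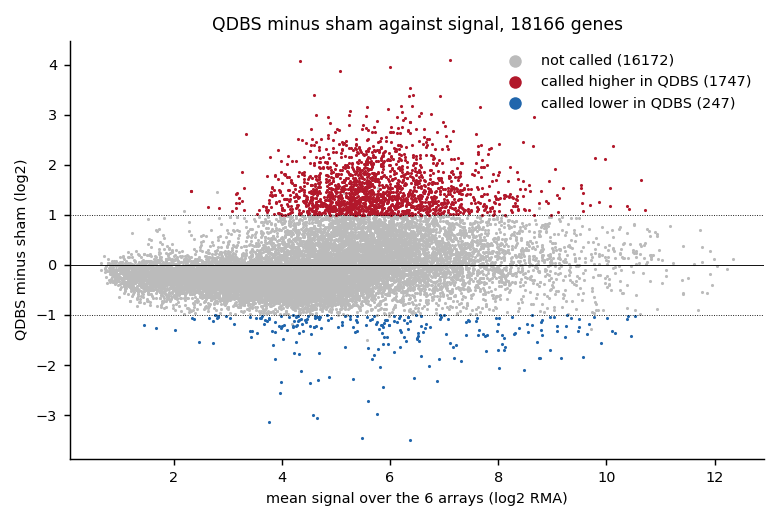
Each point is 1 of 18166 genes, placed by its mean log2 RMA signal over the 6 arrays and by the QDBS minus sham difference on the log2 scale. Red points are the 1747 genes called higher in QDBS, blue points the 247 called lower, and dotted lines mark a fold of 2.

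Sham replicate 2 stood apart from its group. Across genes it correlated at 0.963 and 0.965 with the other sham arrays, which correlated at 0.989 with each other, and the QDBS arrays correlated at 0.989 to 0.993 among themselves. The median within-group standard deviation was 0.13 in QDBS and 0.21 in sham (log2, n = 3 each). Sham replicate 2 was the lowest sham array in 1455 of the 1747 genes that rose and the highest in 165 of the 247 that fell. Without it 1392 genes rose and 238 fell. Genes named by the rule whose call ended without it are listed beside their values. All 149 genes named by the rule had QDBS and sham arrays that did not overlap, which the rule asked of those that were called.

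The genes with the smallest p-values showed how far the groups could lie apart. Smc4, a core subunit of condensin, measured 7.13, 6.78 and 7.10 in the QDBS arrays, against 3.09, 2.89 and 3.42 in the sham arrays. Its difference of 3.87 ± 0.16 (log2 mean ± standard error) was a fold of 14.6 (adjusted p = 5.72e-07). The sham arrays of Smc4 lay near the 3.06 at which the dimmest bin ended, so the size of this fold is uncertain. Bcap29, a chaperone-like protein of the endoplasmic reticulum, measured 6.78, 6.55 and 6.87 in the QDBS arrays, against 3.60, 3.68 and 3.92 in the sham arrays (8.0-fold, adjusted p = 5.72e-07). The spread within either group was a small part of these differences, which a choice by the smallest p-value favours. Riok1, a kinase of small ribosomal subunit maturation, read 5.86, 6.14 and 5.94 in the QDBS arrays, against 3.55, 3.50 and 3.34 in the sham arrays (5.72-fold, adjusted p = 1.23e-06). Cct8, a subunit of the chaperonin that folds actin and tubulin, gave 6.94, 6.90 and 6.95 in the QDBS arrays, against 4.81, 4.48 and 4.72 in the sham arrays (4.79-fold, adjusted p = 1.48e-06). Snx2, a sorting nexin of the retromer, rose 5.75-fold (adjusted p = 1.39e-06). Ppp2r2a, which directs phosphatase 2A to its substrates, and Gimap4, a GTPase of lymphocytes, had folds of 5.18 and 8.96. All 10 genes with the smallest p-values among those that rose kept their call without any 1 array. Among the 5 genes that fell with the smallest p-values, S100a1, a calcium-binding protein best known from muscle, measured 4.37, 4.01 and 4.15 in the QDBS arrays, against 6.61, 6.20 and 6.54 in the sham arrays (4.84-fold, adjusted p = 3.85e-06). The other 4 of these 5 were transcripts of liver proteins and are described with them.

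Many lymphocyte genes rose. Of 30 measured T cell genes 8 rose and none fell (26.7%, against 9.62% of all genes and 21.6% of the brightest bin). The list median was 0.67 on the log2 scale. Cd3g, the gamma chain of CD3, measured 9.32, 8.99 and 9.19 in the QDBS arrays, against 7.85, 7.16 and 7.94 in the sham arrays (2.86-fold, adjusted p = 0.000146). Cd2, an adhesion receptor of T and natural killer cells, measured 8.55, 9.02 and 8.77 in the QDBS arrays, against 6.99, 6.35 and 7.02 in the sham arrays (3.99-fold, adjusted p = 2.65e-05). In both genes every QDBS array was above every sham array, as the rule for naming called genes asked. Cd8a, the co-receptor of cytotoxic T cells, rose 2.65-fold (adjusted p = 0.000407). Cd4, the co-receptor of helper T cells, averaged 9.97 in QDBS and 9.03 in sham blood, a difference of 0.94 ± 0.24 that stayed under the fold threshold (adjusted p = 0.00963). The largest fold on the list, 4.86, belonged to Il7r, the receptor of a survival factor for T cells, which was picked for its size.

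On the B cell list 12 of 28 rose (42.9%) and none fell, and the list median was 0.93. Cd79b, a signalling chain of the B cell receptor, measured 9.04, 9.73 and 8.59 in the QDBS arrays, against 8.26, 7.51 and 8.29 in the sham arrays (2.14-fold, adjusted p = 0.0193). Ikzf3, a transcription factor of lymphocytes, read 7.64, 8.25 and 7.62 in the QDBS arrays, against 6.69, 5.68 and 6.51 in the sham arrays (2.92-fold, adjusted p = 0.00077). QDBS replicate 2 was the highest array and sham replicate 2 the lowest in both. Fcer2, the low-affinity IgE receptor, rose 2.28-fold (adjusted p = 0.00717). Cd79b and Fcer2 were no longer called without QDBS replicate 2 or sham replicate 2. Cd79b and Fcer2 were not called with arrays centred on the 75th percentile. The largest fold, 9.0, was that of Ms4a1 (CD20), picked for its size.

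Natural killer and cytotoxic genes rose in 8 of 28 cases (28.6%, against 9.62% of all genes and 21.6% of the brightest bin). None fell, and the list median was 0.61. Prf1, the pore-forming protein perforin, measured 9.62, 9.96 and 9.81 in the QDBS arrays, against 8.36, 8.44 and 8.39 in the sham arrays (2.63-fold, adjusted p = 1.48e-05). Gzmk, a granzyme protease, measured 8.55, 8.71 and 8.94 in the QDBS arrays, against 7.21, 7.56 and 7.04 in the sham arrays (2.76-fold, adjusted p = 0.000244). The arrays of each group lay close together in both genes. Klrk1, the activating receptor NKG2D, rose 6.38-fold (adjusted p = 4.56e-06). Rat killer lectin-like receptor genes are close paralogs, so a probe set may read more than 1 of them. Of 18 measured members of that family 5 rose (27.8%, against 9.62% of all genes) and none fell.

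Among 34 genes of monocytes and macrophages 6 rose and none fell (17.6%, against 9.62% of all genes and 21.6% of the brightest bin). The list median was 0.00. Cybb, the catalytic chain of the phagocyte NADPH oxidase, measured 9.01, 9.51 and 9.13 in the QDBS arrays, against 7.77, 7.08 and 7.65 in the sham arrays (3.28-fold, adjusted p = 7.87e-05). Ccr2, the chemokine receptor of inflammatory monocytes, measured 8.28, 8.21 and 8.49 in the QDBS arrays, against 5.55, 5.80 and 5.93 in the sham arrays (5.92-fold, adjusted p = 1.3e-05). Ctss, the lysosomal protease cathepsin S, rose 2.25-fold (adjusted p = 0.00107). Ctss was no longer called without sham replicate 2. Ctss was not called with arrays centred on the 75th percentile. Of the 34, 2 rose without sham replicate 2. Cd14, the lipopolysaccharide co-receptor, averaged 6.80 in QDBS and 7.22 in sham (adjusted p = 0.188). Spi1, a master factor of myeloid cells, averaged 8.91 in QDBS and 9.02 in sham (adjusted p = 0.618). These 2 markers were thus above the array medians in both groups and were not called, unlike Cybb, Ccr2 and Ctss.

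Of 35 measured neutrophil genes 2 rose (5.71%, below the 9.62% of all genes) and 4 fell (11.4%, against 1.36% of all genes). Without QDBS replicate 1 or sham replicate 1, 2 neutrophil genes fell. Anxa1, a glucocorticoid-induced protein that limits neutrophil entry into tissue, measured 7.47, 6.82 and 8.23 in the QDBS arrays, against 5.38, 4.15 and 4.81 in the sham arrays (6.63-fold, adjusted p = 0.000242). Mmp9, the gelatinase of neutrophil granules, measured 6.70, 7.72 and 7.79 in the QDBS arrays, against 8.53, 8.83 and 8.38 in the sham arrays (2.26-fold, adjusted p = 0.0348). QDBS replicate 1 was the lowest Mmp9 array by 1.02 on the log2 scale. Ngp, a granule protein made by maturing neutrophils, measured 4.95, 7.29 and 6.52 in the QDBS arrays, against 8.35, 7.76 and 8.24 in the sham arrays (3.64-fold, adjusted p = 0.00863). Its difference was -1.86 ± 0.46 on the log2 scale, and -1.21 without QDBS replicate 1, the lowest array. Camp, another such granule protein, fell 2.17-fold (adjusted p = 0.0088), and Lcn2, a granule protein that binds iron carriers, was the other gene that fell (2.7-fold, adjusted p = 0.001). Mmp9 was no longer called without QDBS replicate 1, QDBS replicate 2, sham replicate 1, sham replicate 2 or sham replicate 3, nor Camp without QDBS replicate 1 or sham replicate 1. Mmp9 and Camp were not called with arrays centred on the median. The receptor Csf3r averaged 9.88 in QDBS and 9.86 in sham (adjusted p = 0.936), and S100a8 and S100a9 averaged 8.41 and 10.24 in QDBS, against 7.88 and 9.85 in sham (adjusted p = 0.176 and 0.193). The groups overlapped in the mean level of the list, which was 6.51 to 6.93 in the QDBS arrays and 6.65 to 6.82 in the sham arrays. Of 27 genes of eosinophils, basophils and mast cells none rose or fell by the rule (limma). At an unadjusted p under 0.05, 4 of these genes were higher and 7 lower in QDBS. The brightest of them, Fcer1g, the shared signalling chain of Fc receptors, measured 10.76, 10.40 and 10.75 in the QDBS arrays, against 10.98, 10.99 and 10.93 in the sham arrays, a difference of -0.33 ± 0.13 (adjusted p = 0.0534).

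Platelet transcripts fell. Of 33 genes of platelets and megakaryocytes 15 fell (45.5%, against 1.36% of all genes) and 1 rose, and the list median was -0.87. Gp9, a chain of the von Willebrand factor receptor, measured 10.04, 9.58 and 9.60 in the QDBS arrays, against 11.11, 11.30 and 11.10 in the sham arrays (2.69-fold, adjusted p = 0.000366). Itga2b, the alpha chain of the fibrinogen receptor, measured 9.86, 9.21 and 9.39 in the QDBS arrays, against 10.68, 11.08 and 10.75 in the sham arrays (2.55-fold, adjusted p = 0.00237). Sham replicate 2 was the highest array in both. Treml1, a receptor of platelet granules, fell 2.51-fold (adjusted p = 0.000747). Vwf, the von Willebrand factor itself and the single called gene among 36 endothelium and vessel wall genes, measured 7.82, 6.93 and 7.03 in the QDBS arrays, against 8.78, 9.35 and 8.76 in the sham arrays (3.26-fold, adjusted p = 0.00114). Mmrn1, multimerin of platelet granules, went the other way at 9.02, 8.05 and 8.82 in the QDBS arrays, against 7.45, 7.20 and 7.22 in the sham arrays (2.54-fold, adjusted p = 0.00326). Pf4, platelet factor 4 and a highly abundant platelet transcript, averaged 11.57 in QDBS and 12.14 in sham, a difference that was not called (adjusted p = 0.0542). The summed signal of the list was 13.66 to 14.24 in the QDBS arrays, against 14.71 to 14.99 in the sham arrays (log2 of the sum). Of the 33, 11 fell without sham replicate 2.

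**Figure D2:**
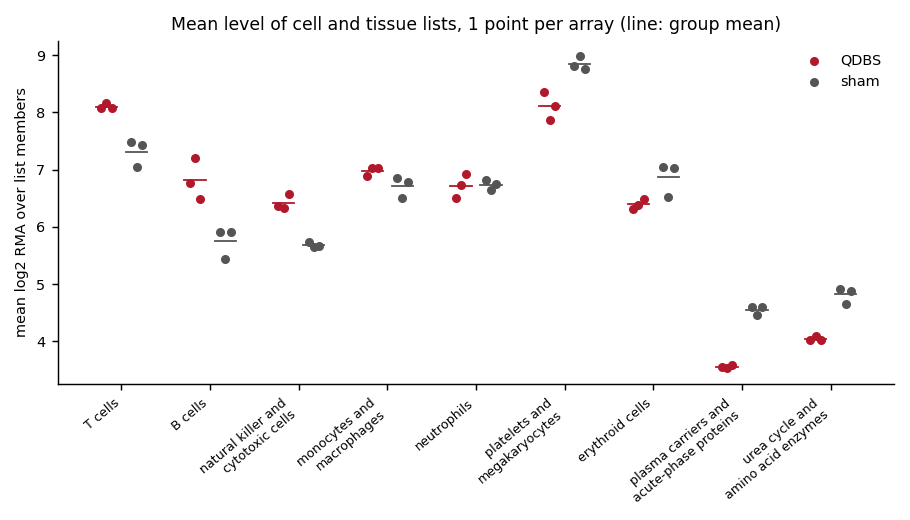
Mean log2 RMA level over the measured members of 9 cell and tissue lists, with 1 point for each array (QDBS red, sham grey) and a line at each group mean. The T cell points lay at 8.07 to 8.16 in QDBS and 7.04 to 7.48 in sham, and the platelet points at 7.87 to 8.36 in QDBS and 8.76 to 8.98 in sham.

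On the erythroid list 6 of 37 genes fell (16.2%) and 1 rose, with a list median of -0.51. Ahsp, which stabilises free alpha globin, measured 6.87, 7.04 and 7.16 in the QDBS arrays, against 8.32, 8.58 and 8.32 in the sham arrays (2.61-fold, adjusted p = 0.00326). Nfe2, a factor of the erythroid and megakaryocyte lineages, measured 8.93, 8.82 and 9.12 in the QDBS arrays, against 9.89, 10.41 and 9.84 in the sham arrays (2.12-fold, adjusted p = 0.000567). Tal1, a factor of early blood cells, fell 2.86-fold (adjusted p = 0.00185). Epb41, a protein of the red cell membrane skeleton that other cells also express, was the gene that rose, at 9.15, 9.22 and 9.11 in the QDBS arrays, against 8.38, 7.71 and 8.39 in the sham arrays (adjusted p = 0.00172). Nfe2 was no longer called without sham replicate 2, nor Epb41 without QDBS replicate 2 or sham replicate 2. Nfe2 was not called with arrays centred on the median, nor Epb41 with the 75th percentile as the centre. The mean level of the list was 6.31 to 6.49 in the QDBS arrays and 6.52 to 7.05 in the sham arrays, with sham replicate 2 the lowest of the sham arrays. Hemoglobin genes were bright in both groups. Hba-a1 averaged 11.64 in QDBS and 11.62 in sham (adjusted p = 0.946), and Hbb-b1 averaged 11.75 in QDBS and 12.16 in sham (adjusted p = 0.0579), with near-identical globin copies that the probes may not separate. The count that fell was 11 of 37 without sham replicate 2.

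Transcripts of liver proteins were lower in QDBS blood. Of 36 plasma carriers and acute-phase proteins 14 fell (38.9%, against 1.36% of all genes) and none rose. All QDBS arrays lay below all sham arrays in 33 of the 36, and in 5680 of all 18166 genes. Ttr, the carrier of thyroid hormone and retinol, measured 4.53, 4.11 and 4.18 in the QDBS arrays, against 7.37, 7.30 and 7.10 in the sham arrays (7.9-fold, adjusted p = 8.55e-07). Hpx, which binds free heme, measured 3.60, 3.62 and 3.32 in the QDBS arrays, against 5.78, 5.68 and 5.98 in the sham arrays (4.92-fold, adjusted p = 2.4e-06). The gap between the groups was 2.57 for Ttr and 2.06 for Hpx on the log2 scale. Vtn, the adhesion protein vitronectin, fell 7.95-fold (adjusted p = 4.78e-06). Its QDBS arrays read 2.99, 3.10 and 3.14, near the 3.06 at which the dimmest bin ended, so the size of this fold is uncertain. Alb, serum albumin, averaged 3.35 in QDBS and 5.10 in sham (3.37-fold lower, adjusted p = 2.65e-05). The mean level of the list was 3.53 to 3.59 in the QDBS arrays and 4.46 to 4.60 in the sham arrays, against array medians over genes of 4.42 to 4.43 in QDBS and 4.48 to 4.50 in sham. The count that fell was also 14 without sham replicate 2.

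Clotting factors gave 5 genes that fell of 32 (15.6%, against 1.36% of all genes) and none that rose. Fgb, the fibrinogen beta chain, measured 3.91, 3.74 and 3.59 in the QDBS arrays, against 6.11, 5.59 and 6.24 in the sham arrays (4.71-fold, adjusted p = 7.94e-06). Plg, plasminogen, and Serpind1, the thrombin inhibitor heparin cofactor II, fell 2.37-fold (adjusted p = 0.000255) and 2.46-fold (adjusted p = 1.39e-05). Of 26 apolipoprotein and lipoprotein genes 5 fell (19.2%) and 1 rose (3.85%, below the 9.62% of all genes). Pltp, the phospholipid transfer protein, measured 7.14, 7.30 and 7.03 in the QDBS arrays, against 8.87, 9.0 and 8.68 in the sham arrays (3.23-fold, adjusted p = 9.44e-05). Apoe, the remnant-binding apolipoprotein that macrophages also make, measured 4.48, 4.78 and 4.63 in the QDBS arrays, against 9.04, 6.45 and 8.87 in the sham arrays (11.2-fold, adjusted p = 0.000478). Sham replicate 2 was 2.42 below the next sham array of Apoe and still 1.67 above the highest QDBS array, and the log2 difference was -3.49 ± 0.52, or -4.33 without that array. Apoa2 fell 2.35-fold (adjusted p = 0.000148). Olr1, the receptor for oxidised low-density lipoprotein, rose at 4.95, 4.50 and 5.62 in the QDBS arrays, against 3.81, 3.50 and 3.92 in the sham arrays (2.42-fold, adjusted p = 0.00806), and was no longer called without QDBS replicate 3.

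Of 34 enzymes of the urea cycle and amino acid breakdown 12 fell (35.3%) and none rose. Ass1, argininosuccinate synthase, measured 4.48, 5.05 and 4.44 in the QDBS arrays, against 7.40, 6.54 and 7.33 in the sham arrays (5.39-fold, adjusted p = 2.75e-05). Cps1, which starts the urea cycle, measured 3.40, 3.23 and 3.40 in the QDBS arrays, against 5.71, 5.41 and 5.97 in the sham arrays (5.11-fold, adjusted p = 3.01e-06). Hpd, an enzyme of tyrosine breakdown, fell 2.35-fold (adjusted p = 0.000457). Among 45 cytochrome P450 and drug metabolism genes 5 fell (11.1%, against 1.36% of all genes) and none rose. Cyp2e1, the ethanol-inducible P450, measured 3.81, 3.56 and 3.91 in the QDBS arrays, against 7.44, 7.16 and 7.05 in the sham arrays (11-fold, adjusted p = 5.72e-07), which was the largest fold on that list. Gsta1, a glutathione transferase, fell 2.35-fold (adjusted p = 0.002), and Cyp2c6v1 fell 2.78-fold (adjusted p = 2.94e-05). Rat Cyp2c and Gsta genes have close paralogs that probes may not separate. Gsta1 was no longer called without QDBS replicate 2.

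Hepatocyte nuclear factor 1 is a known activator of albumin and other liver genes, and its site core was searched as GTTAATNAT on both strands of RefSeq promoter windows (GRCr8, 250 bases before to 50 after a gene's start). All 14 plasma carriers that fell had a promoter in the table, and 2 of them held the letters (14.3%), against 0.75% of 27457 promoters. Of the 22 carriers that were not called, 14 had a promoter, too few for a share, and 2 of those 14 held the letters too. Windows of 100 bases are shown, with the match in capitals, for the 2 that hold it, Alb (chr14:17907002-17907101, minus strand) and Gc, the vitamin D carrier (chr14:18916021-18916120, plus strand).
Alb: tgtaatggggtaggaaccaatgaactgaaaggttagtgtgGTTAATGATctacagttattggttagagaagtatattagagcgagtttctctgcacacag
Gc: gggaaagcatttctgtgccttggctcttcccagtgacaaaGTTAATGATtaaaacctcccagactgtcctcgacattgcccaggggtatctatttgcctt
Both fell. A match of letters is a description and no measure of binding.

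Lists of other tissues held few or no calls. None of 38 skeletal and heart muscle genes, none of 36 neuron and glia genes and 1 of 36 endothelium genes, Vwf, was called by limma. At an unadjusted p under 0.05, 1 muscle gene was higher in QDBS and 20 were lower, and of neuron and glia genes 0 were higher and 23 lower. Mean levels were low, at 3.69 to 3.72 in the QDBS arrays and 3.92 to 4.22 in the sham arrays for muscle, and the median log2 difference was -0.32 in the second dimmest of the 5 bins of all genes. Ckm, muscle creatine kinase, averaged 4.70 in QDBS and 5.14 in sham (adjusted p = 0.0114). The brightest member of the muscle list, the enolase Eno3, measured 6.50, 6.86 and 6.43 in the QDBS arrays, against 6.16, 5.29 and 6.06 in the sham arrays, a difference of 0.76 ± 0.24 under the fold threshold (adjusted p = 0.0281). Among neuron and glia genes the brightest was Npy, neuropeptide Y, which rat megakaryocytes and platelets are also known to hold. It measured 11.75, 10.83 and 11.17 in the QDBS arrays, against 12.10, 12.23 and 12.11 in the sham arrays, a difference of -0.90 ± 0.26 (adjusted p = 0.0184), under the fold threshold, and it was called without QDBS replicate 1. Complement gave 3 genes of 32 that rose and none that fell (9.38%, near the 9.62% of all genes). At an unadjusted p under 0.05, 5 complement genes were higher in QDBS and 18 were lower, and the list median was -0.43. The count that fell was 3 without sham replicate 2, 7 with arrays centred on the 75th percentile and 4 after quantile normalization. The 3 that rose are receptors or regulators on cell surfaces. Cr1l, a regulator of C3 convertase, measured 7.55, 7.63 and 7.66 in the QDBS arrays, against 6.96, 6.21 and 6.61 in the sham arrays (2.04-fold, adjusted p = 0.00101). Cd55, which speeds decay of the convertase, rose 2.57-fold (adjusted p = 2.27e-05), and Cr2, the C3d receptor of B cells, rose 3.07-fold (adjusted p = 8.51e-05). Cr1l was no longer called without sham replicate 2. Cr1l was not called with arrays centred on the 75th percentile.

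**Figure D3:**
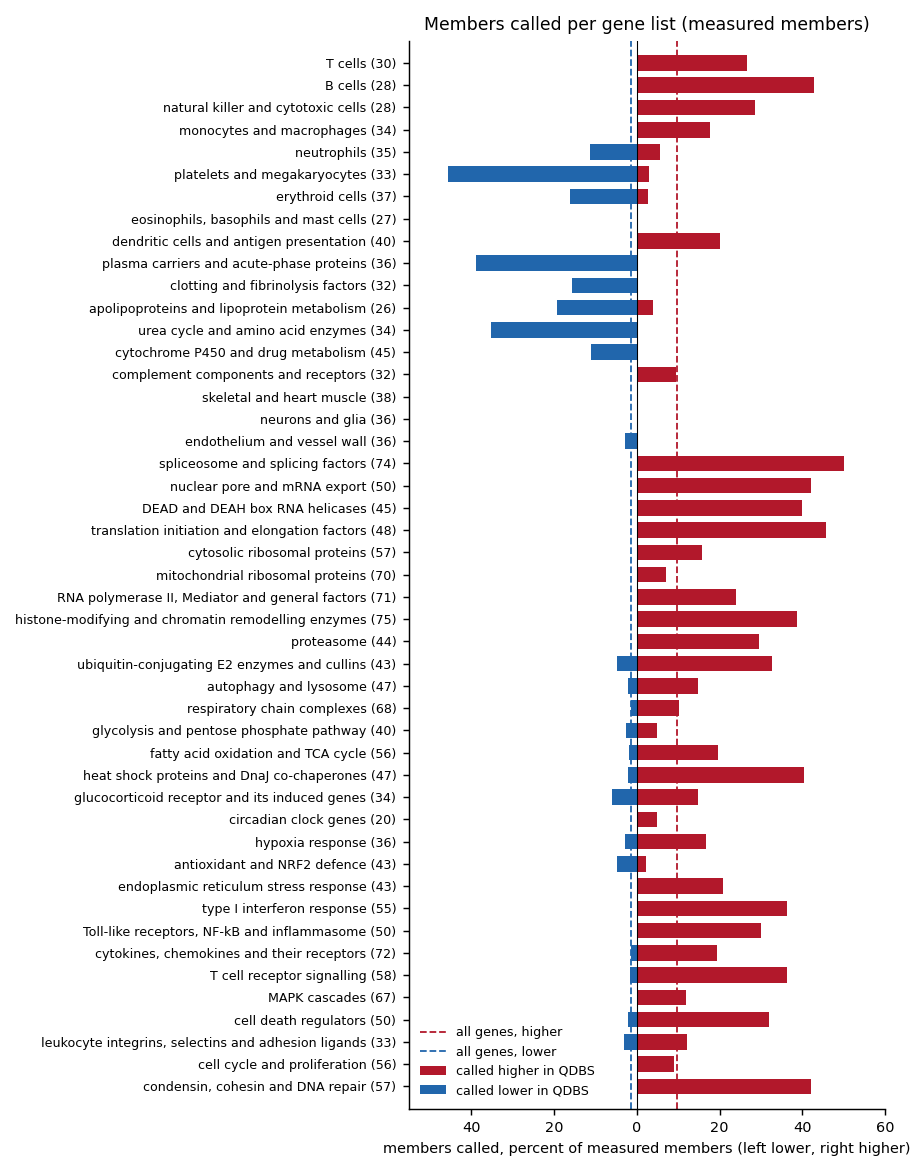
Share of the measured members (number in brackets) of each of 47 gene lists that was called, higher in QDBS to the right in red and lower in QDBS to the left in blue, in percent. Dashed lines mark the 9.62% and 1.36% of all genes called in each direction. Splicing factors reached 50% to the right and platelet genes 45.5% to the left.

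Of the 47 gene lists, splicing factors had the largest share that rose. Of 74 spliceosome and splicing factors 37 rose (50%) and none fell, with a list median of 1.00 against -0.15 for all genes. Ddx5, an RNA helicase of the spliceosome, measured 9.23, 9.10 and 9.58 in the QDBS arrays, against 7.92, 7.10 and 7.86 in the sham arrays (3.2-fold, adjusted p = 0.000165). Hnrnpa3, an RNA-binding protein, measured 9.01, 8.67 and 8.77 in the QDBS arrays, against 6.70, 6.03 and 6.61 in the sham arrays (5.18-fold, adjusted p = 5.14e-06). In both genes the groups lay more than 1 log2 unit apart. Srrm2, a scaffold of the spliceosome, rose 2.96-fold (adjusted p = 3.44e-05), and Hnrnpu, which binds nascent RNA and chromatin, was among the 10 smallest p-values that rose (6.15-fold, adjusted p = 8.55e-07). The 37 folds ran between 2.03 for Acin1 and 6.57 for Rbm39, both named for their place at the ends. The spliceosome count without sham replicate 2 was 33.

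Nuclear pore and export genes rose in 21 of 50 cases (42.0%). Nup98, a pore protein, measured 7.52, 7.74 and 7.63 in the QDBS arrays, against 6.58, 6.02 and 6.77 in the sham arrays (2.26-fold, adjusted p = 0.000771). Kpnb1, importin beta, measured 7.57, 7.57 and 7.66 in the QDBS arrays, against 6.25, 5.36 and 6.07 in the sham arrays (3.28-fold, adjusted p = 9.44e-05). Tnpo1, the importer of RNA-binding proteins, rose 2.13-fold (adjusted p = 0.000618), and Tpr, the filament protein of the nuclear basket, was among the smallest p-values (6.79-fold, adjusted p = 5.72e-07). Of 45 DEAD and DEAH box helicases 18 rose (40%). Ddx6, a helicase of mRNA decay, read 8.92, 8.76 and 9.09 in the QDBS arrays, against 7.13, 5.83 and 7.18 in the sham arrays (4.62-fold, adjusted p = 0.000216). Ddx21, a nucleolar helicase, rose 4.52-fold (adjusted p = 3.53e-06). Nup98 and Tnpo1 were no longer called without sham replicate 2. Nup98 and Tnpo1 were not called with arrays centred on the 75th percentile.

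Translation initiation and elongation factors rose in 22 of 48 cases (45.8%). Eif4b, a cofactor of the mRNA-unwinding helicase, measured 9.37, 9.58 and 9.17 in the QDBS arrays, against 8.39, 7.79 and 8.25 in the sham arrays (2.34-fold, adjusted p = 0.0003). Eif4g2, an initiation scaffold, rose 3.01-fold (adjusted p = 0.0002), and Eif3l, a subunit of the factor that binds the small ribosomal subunit, rose 2.15-fold (adjusted p = 0.0063). Of 57 cytosolic ribosomal proteins 9 rose (15.8%, against 9.62% of all genes and 21.6% of the brightest bin) and none fell. Rpl17 measured 11.04, 10.93 and 10.96 in the QDBS arrays, against 9.92, 9.76 and 9.91 in the sham arrays (2.16-fold, adjusted p = 3.14e-05). Rpl4 measured 10.97, 11.03 and 11.09 in the QDBS arrays, against 9.11, 8.55 and 9.11 in the sham arrays (4.31-fold, adjusted p = 5.83e-06), and Rpl21 rose 2.89-fold (adjusted p = 6.43e-05). The ribosomal arrays were tight in QDBS, within 0.12 for each of these 3 genes. Ribosomal protein genes have many processed pseudogenes whose signal the probes may share. Of 70 mitochondrial ribosomal proteins 5 rose (7.14%, below the 9.62% of all genes), or 3 without sham replicate 2. Mrps15 measured 6.47, 6.49 and 6.23 in the QDBS arrays, against 5.59, 4.93 and 5.01 in the sham arrays (2.33-fold, adjusted p = 0.000283), and Mrps23 and Mrpl32 rose 2.35-fold (adjusted p = 0.00167) and 2.46-fold (adjusted p = 8.45e-05). Eif3l was no longer called without QDBS replicate 2 or sham replicate 2, nor Mrps23 without sham replicate 2. Eif3l, Rpl17 and Mrps15 were not called with arrays centred on the 75th percentile.

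RNA polymerase II, Mediator and general factor genes rose in 17 of 71 cases (23.9%). Med12, a subunit of the Mediator kinase module, measured 7.40, 7.60 and 7.21 in the QDBS arrays, against 6.65, 6.07 and 6.37 in the sham arrays (2.06-fold, adjusted p = 0.000836). Med14, the backbone of Mediator, and Supt6h, a histone chaperone of elongation, rose 2.8-fold (adjusted p = 0.000283) and 2.51-fold (adjusted p = 0.000218). Of 75 histone-modifying and chromatin remodelling enzymes 29 rose (38.7%). Crebbp, a histone acetyltransferase, read 8.35, 8.23 and 8.37 in the QDBS arrays, against 7.62, 6.59 and 7.56 in the sham arrays (2.08-fold, adjusted p = 0.00733). Sham replicate 2 was nearly 1 log2 unit below the other sham arrays of Crebbp. Ezh1, a methyltransferase of Polycomb, and Chd4, a remodelling ATPase, rose 2.17-fold (adjusted p = 0.00118) and 2.04-fold (adjusted p = 0.00085). Med12 and Chd4 were no longer called without QDBS replicate 2 or sham replicate 2, nor Crebbp and Ezh1 without sham replicate 2. Med12, Crebbp, Ezh1 and Chd4 were not called with arrays centred on the 75th percentile. The count of chromatin enzymes that rose was 20 without sham replicate 2.

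The splicing list was also used for a promoter description. ETS factors are known activators of housekeeping promoters. Their site CCGGAAGT, searched on both strands, was in 13 of 70 splicing factor promoters (18.6%) and in 4.01% of 27457 promoters. Of the splicing factors it was in 5 of the 34 that rose (14.7%) and in 8 of the 36 that were not called (22.2%). Among the brightest 40% of genes, 10.9% of the promoters of genes that rose held it, against 8.63% of those of genes that were not called. Median GC content of these promoters was 61.7% for bright genes that rose and 61.3% for bright genes that were not called. Of genes that fell 76.5% had a promoter in the table, so a promoter share for them is void. Genes that rose had a median span in the genome of 37.7 kb, and 38.4 kb within the brightest 40%, against 17.5 kb for bright genes that were not called. Genes that fell had a median span of 12.7 kb, and all genes 17.2 kb (RefSeq, GRCr8). By chromosome, leaving out Y with 1 gene, the share that rose ran between 6.67% on chromosome 12 and 16.2% on chromosome 18. These shares are descriptions, since genes are not independent.

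Protein turnover genes rose in part. Of 44 proteasome genes 13 rose (29.5%). Psmb8, an interferon-induced subunit of the immunoproteasome, measured 8.82, 9.05 and 8.63 in the QDBS arrays, against 7.35, 7.72 and 7.30 in the sham arrays (2.59-fold, adjusted p = 0.00027). Psmc2, a base ATPase, and Psmd11, a lid subunit, rose 2.61-fold (adjusted p = 0.000358) and 2.03-fold (adjusted p = 0.000877). Of 43 ubiquitin-conjugating enzymes and cullins 14 rose (32.6%, against 9.62% of all genes) and 2 fell (4.65%, against 1.36%). Skp1, the adaptor of cullin 1, measured 8.45, 8.18 and 8.54 in the QDBS arrays, against 7.30, 6.38 and 7.33 in the sham arrays (2.61-fold, adjusted p = 0.00099). Ube2o, an enzyme known to clear ribosomes from maturing red cells, measured 8.36, 8.46 and 8.43 in the QDBS arrays, against 10, 9.26 and 9.98 in the sham arrays (2.51-fold, adjusted p = 0.00122). The second that fell was Ube2c, which acts in mitosis (2.86-fold, adjusted p = 0.00092). Birc6 and Ube2e2 rose 2.26-fold (adjusted p = 0.0031) and 2.41-fold (adjusted p = 0.000344). Ube2e2 was not called when the mean of its transcript clusters was used, nor after quantile normalization. Deubiquitinating enzymes of the Usp family rose in 21 of 46 cases (45.7%), and none fell.

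Of 47 autophagy and lysosome genes 7 rose (14.9%, against 9.62% of all genes and 21.6% of the brightest bin). Another 1 fell (2.13%, against 1.36% of all genes and 2.84% of the brightest bin). Tax1bp1, a cargo receptor, measured 7.77, 7.54 and 8.16 in the QDBS arrays, against 5.83, 4.64 and 5.76 in the sham arrays (5.31-fold, adjusted p = 8.48e-05). Atg3, which conjugates LC3 to lipid, rose 3.62-fold (adjusted p = 0.000334). Map1lc3a, a member of the LC3 family itself, fell, at 4.63, 5.11 and 4.75 in the QDBS arrays, against 5.53, 6.33 and 5.90 in the sham arrays (2.13-fold, adjusted p = 0.00166). Psmd11 was no longer called without QDBS replicate 2 or sham replicate 2, nor Birc6 without sham replicate 2, nor Map1lc3a without QDBS replicate 1 or sham replicate 2. Psmd11 and Birc6 were not called with arrays centred on the 75th percentile, nor Map1lc3a with the median as the centre. The autophagy count that rose was 4 without sham replicate 2.

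On the energy metabolism lists the share that rose was no larger than in the bins of like signal. Respiratory chain genes rose in 7 of 68 cases (10.3%) and 1 fell. That share was near the 9.62% of all genes but below the 21.6% of the brightest bin. The mean level of the list was 6.69 to 6.82 in the QDBS arrays and 6.53 to 6.73 in the sham arrays, in the range of that bin. Sdha, the catalytic subunit of complex II, measured 7.59, 8.05 and 7.57 in the QDBS arrays, against 6.95, 6.06 and 6.84 in the sham arrays (2.17-fold, adjusted p = 0.00245). Atp5pb of the ATP synthase and Ndufa9 of complex I rose 2.23-fold (adjusted p = 0.000547) and 2.27-fold (adjusted p = 0.00101). Ndufa1, also of complex I, fell, at 5.40, 5.09 and 5.62 in the QDBS arrays, against 6.23, 6.94 and 6.29 in the sham arrays (2.16-fold, adjusted p = 0.00439). Of the 68, 3 rose without sham replicate 2. Of 40 glycolysis and pentose phosphate genes 2 rose and 1 fell. Pdha1, of pyruvate dehydrogenase, measured 7.49, 7.30 and 7.87 in the QDBS arrays, against 6.50, 6.14 and 6.38 in the sham arrays (2.32-fold, adjusted p = 0.000188). Pdk3, a kinase that inhibits that enzyme, rose 2.63-fold (adjusted p = 0.000892). Pck1, the gluconeogenic enzyme of liver and kidney, fell, at 3.73, 3.88 and 3.61 in the QDBS arrays, against 5.42, 4.70 and 5.06 in the sham arrays (2.5-fold, adjusted p = 0.000172).

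Fatty acid oxidation and citric acid cycle genes rose in 11 of 56 cases (19.6%) and 1 fell. Hadha, of the mitochondrial trifunctional protein, measured 7.68, 8.36 and 7.72 in the QDBS arrays, against 6.70, 5.72 and 6.70 in the sham arrays (2.92-fold, adjusted p = 0.00107). Idh3b, of isocitrate dehydrogenase, and Acsl5, which activates fatty acids, rose 2.77-fold (adjusted p = 0.000627) and 3.84-fold (adjusted p = 7.29e-05). Fabp1, the fatty acid binding protein of liver, fell, at 1.93, 2.04 and 1.87 in the QDBS arrays, against 3.60, 2.88 and 4.03 in the sham arrays (adjusted p = 0.000449). Its QDBS values lay in the dimmest of the 5 bins of signal, so no fold is given. Sdha and Ndufa1 were no longer called without QDBS replicate 2 or sham replicate 2, nor Atp5pb and Ndufa9 without sham replicate 2. Sdha, Atp5pb, Ndufa9 and Pdha1 were not called with arrays centred on the 75th percentile, nor Ndufa1 with the median as the centre.

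Heat shock genes had the largest share that rose among the stress lists. Of 47 heat shock proteins and DnaJ co-chaperones 19 rose (40.4%) and 1 fell. Hspa8, the constitutive Hsp70, measured 11.34, 11.55 and 11.57 in the QDBS arrays, against 9.96, 9.47 and 9.93 in the sham arrays (3.25-fold, adjusted p = 1.29e-05). Hspa5, the Hsp70 of the endoplasmic reticulum, measured 8.54, 8.86 and 8.60 in the QDBS arrays, against 6.94, 6.34 and 6.84 in the sham arrays (3.89-fold, adjusted p = 1.23e-05). Sham replicate 2 was the lowest array of both, and the groups lay over 1.3 log2 units apart. Hsp90ab1, a constitutive Hsp90, rose 2.56-fold (adjusted p = 2.73e-05). Dnajb2, a co-chaperone best known from neurons, fell, at 7.82, 7.34 and 7.64 in the QDBS arrays, against 8.89, 9.22 and 8.85 in the sham arrays (2.61-fold, adjusted p = 0.000251). Endoplasmic reticulum stress genes rose in 9 of 43 cases (20.9%), among them Pdia3, a disulfide isomerase, at 8.72, 8.66 and 8.87 in the QDBS arrays, against 7.16, 5.72 and 7.06 in the sham arrays (4.3-fold, adjusted p = 0.000366), and Canx, the lectin chaperone calnexin (3.63-fold, adjusted p = 3.01e-05).

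The heat shock element that heat shock factors bind was searched as TTCNNGAA, a pair of inverted units, on both strands. It was in 10 of 40 heat shock promoters (25%), in 6 of the 16 that rose (37.5%), in 4 of the 23 that were not called (17.4%) and in 8.49% of 27457 promoters. Shown are 100 bases with the matches in capitals for the 3 brightest called genes that have one before the start, Hspa8 (chr8:50080414-50080513, plus strand), the Hsp70-Hsp90 organiser Stip1 (chr1:213657655-213657754, minus strand) and the mitochondrial chaperonin Hspd1 (chr9:64084188-64084287, minus strand).
Hspa8: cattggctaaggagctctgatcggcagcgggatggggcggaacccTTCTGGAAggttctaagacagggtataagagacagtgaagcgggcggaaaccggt
Stip1: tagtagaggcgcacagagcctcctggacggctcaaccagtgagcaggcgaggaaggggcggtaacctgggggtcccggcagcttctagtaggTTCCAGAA
Hspd1: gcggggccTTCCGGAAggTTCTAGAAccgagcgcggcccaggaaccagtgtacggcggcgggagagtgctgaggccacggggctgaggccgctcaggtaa
Hspd1 has 2 matches in its window, and Hspa8 and Stip1 have 1 each. Stip1 rose 5.23-fold (adjusted p = 5.14e-06) and Hspd1 3.19-fold (adjusted p = 0.000166). Matches of the heat shock and ETS letters shared bases in 66 of all promoters.

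Of 34 genes of the glucocorticoid receptor and its induced genes 5 rose (14.7%) and 2 fell (5.88%). Among all genes 9.62% rose and 1.36% fell, and in the brightest bin 21.6% rose and 2.84% fell. Pik3r1, a regulatory subunit of PI3 kinase, measured 7.80, 7.60 and 8.10 in the QDBS arrays, against 6.53, 6.25 and 6.58 in the sham arrays (2.61-fold, adjusted p = 8.99e-05). Besides Anxa1, Klf9, a factor induced by glucocorticoid, rose 2.22-fold (adjusted p = 0.00464). Fkbp5, a widely used marker of glucocorticoid action, averaged 6.48 in QDBS and 5.66 in sham (difference 0.82 ± 0.30, adjusted p = 0.0487), under the fold threshold. Tsc22d3, another such marker, averaged 8.72 in QDBS and 8.71 in sham (adjusted p = 0.947). Fkbp5 and Tsc22d3 were named after their values were seen. Those that fell were Pck1 and Tat, tyrosine aminotransferase of liver (2.54-fold, adjusted p = 2.79e-05). Of 20 clock genes 1 rose, Clock itself, at 5.37, 5.23 and 5.85 in the QDBS arrays, against 4.74, 3.86 and 4.30 in the sham arrays (2.28-fold, adjusted p = 0.00203).

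Hypoxia response genes rose in 6 of 36 cases (16.7%) and 1 fell. Hif1a, the oxygen-regulated factor, measured 7.63, 7.74 and 7.97 in the QDBS arrays, against 5.75, 4.54 and 5.62 in the sham arrays (5.56-fold, adjusted p = 5.17e-05). Its partner Arnt and the oxidase Ero1a rose 2.01-fold (adjusted p = 0.00106) and 3.32-fold (adjusted p = 0.000104). Egln3, a prolyl hydroxylase that HIF induces, fell, at 5.60, 5.80 and 5.52 in the QDBS arrays, against 6.77, 6.39 and 6.94 in the sham arrays (2.08-fold, adjusted p = 0.000556). Of 43 antioxidant and NRF2 genes 1 rose (2.33%, below the 9.62% of all genes) and 2 fell (4.65%, against 1.36%). The count that fell was 0 to 4 with 1 array left out. The gene that rose was Nfe2l2, the gene of NRF2, at 8.05, 8.25 and 8.37 in the QDBS arrays, against 6.21, 5.72 and 5.77 in the sham arrays (5.0-fold, adjusted p = 3.9e-06). The genes that fell were Gsta1 and Gstp1, both glutathione transferases, with Gstp1 at 8.70, 8.18 and 8.40 in the QDBS arrays, against 9.43, 9.75 and 9.25 in the sham arrays (2.07-fold, adjusted p = 0.00194). Hmox1, heme oxygenase 1 and a known target of NRF2, averaged 5.11 in QDBS and 5.54 in sham, a difference of -0.44 ± 0.12 under the fold threshold (adjusted p = 0.0171). Clock was no longer called without sham replicate 2, nor Arnt and Gstp1 without QDBS replicate 2 or sham replicate 2, nor Egln3 without QDBS replicate 3 or sham replicate 3. Klf9, Clock and Arnt were not called with arrays centred on the 75th percentile, nor Egln3 and Gstp1 with the median as the centre. Of the hypoxia genes 3 rose without sham replicate 2.

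**Figure D4:**
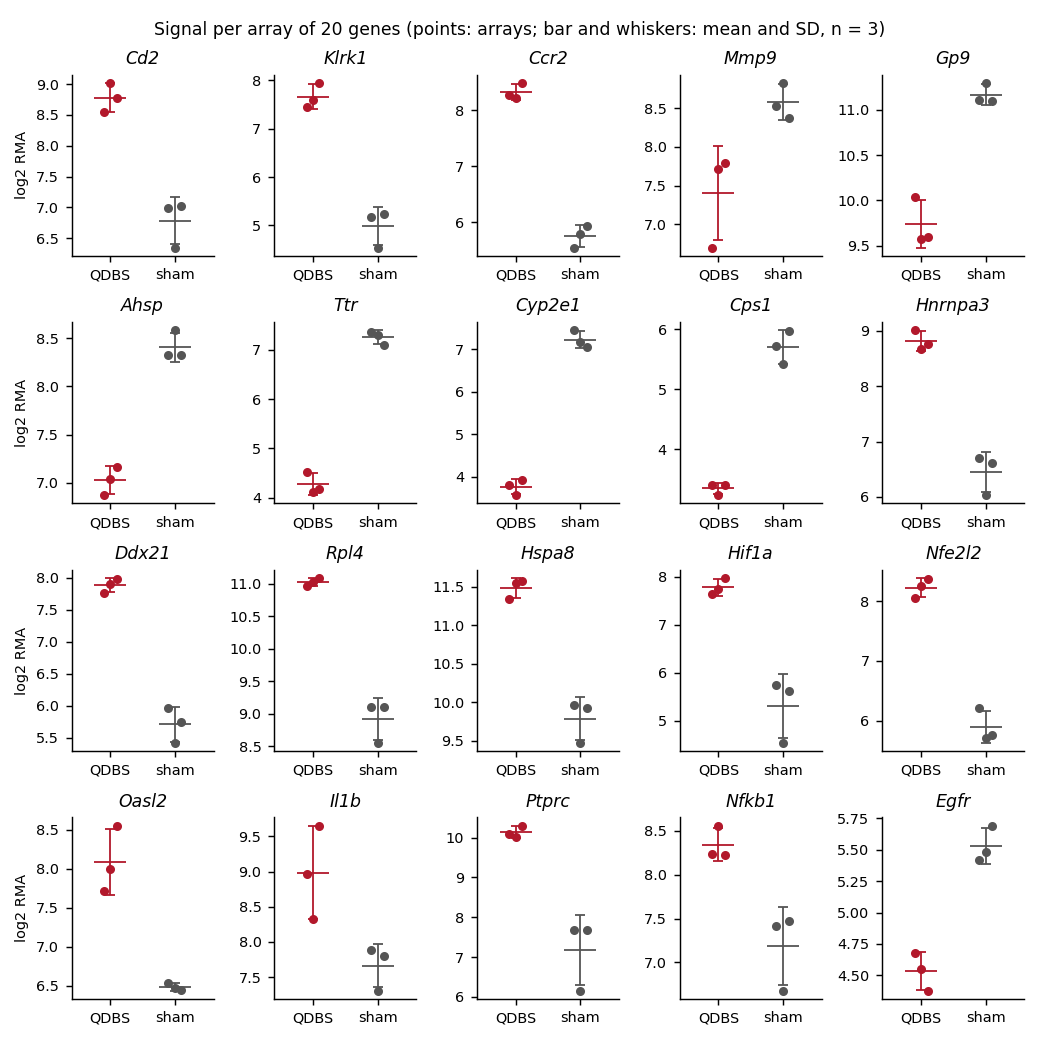
Log2 RMA signal of 20 named genes in the 3 QDBS arrays (red, left) and 3 sham arrays (grey, right) of each panel, with the mean and SD (n = 3). The vertical axes differ between panels and do not start at 0. The groups did not overlap in any panel, which the naming rule asked of called genes. Sham replicate 2 was the lowest sham array of Ptprc at 6.16 and of Hif1a at 4.54.

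Interferon response genes rose in 20 of 55 cases (36.4%) and none fell, with a list median of 0.81, and the count was also 20 without sham replicate 2. Sp100, a nuclear body protein, measured 8.73, 8.57 and 9.02 in the QDBS arrays, against 7.61, 6.86 and 7.86 in the sham arrays (2.52-fold, adjusted p = 0.00108). Irf2, a factor that binds interferon response elements, rose 2.47-fold (adjusted p = 9.1e-05). Oasl2, of the oligoadenylate synthetase family, measured 7.71, 8.0 and 8.55 in the QDBS arrays, against 6.54, 6.47 and 6.45 in the sham arrays (3.04-fold, adjusted p = 0.000796). QDBS replicate 3 was the highest array of Oasl2, and the sham arrays agreed within 0.09.

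The interferon-stimulated response element core was searched as GAAANNGAA on both strands. It was in 9.50% of 27457 promoters. A promoter was in the table for 42 of the 55 interferon genes, too few for a share of the list. Of these promoters, 9 of the 15 of genes that rose held the letters. So did 16 of the 27 of genes that were not called. Windows of 100 bases with matches in capitals are shown for the 3 brightest called genes with a match before the start, Oasl2 (chr12:47383276-47383375, minus strand), Ifit3, which binds foreign RNA with other Ifit proteins (chr1:241527226-241527325, plus strand), and Parp14, a mono-ADP-ribosyltransferase (chr11:78408018-78408117, plus strand).
Oasl2: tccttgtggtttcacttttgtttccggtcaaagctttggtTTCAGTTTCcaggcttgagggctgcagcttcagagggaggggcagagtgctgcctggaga
Ifit3: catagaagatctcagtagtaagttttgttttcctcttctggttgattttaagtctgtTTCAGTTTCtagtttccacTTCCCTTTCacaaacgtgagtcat
Parp14: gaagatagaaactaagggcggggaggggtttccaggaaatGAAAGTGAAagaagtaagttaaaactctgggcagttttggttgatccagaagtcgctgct
Oasl2 and Ifit3 hold the letters on the opposite strand, Ifit3 at 2 places, and Parp14 on the strand shown. Ifit3 rose 3.66-fold (adjusted p = 0.00203) and Parp14 4.6-fold (adjusted p = 6.93e-06). Matches of this motif shared bases with heat shock matches in 40 of all promoters.

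Toll-like receptor, NF-kB and inflammasome genes rose in 15 of 50 cases (30.0%) and none fell. Il1b, the cytokine interleukin 1 beta, measured 8.97, 8.33 and 9.65 in the QDBS arrays, against 7.88, 7.31 and 7.80 in the sham arrays (2.5-fold, adjusted p = 0.00455). Nfkb1, the p105 and p50 subunit of NF-kB, measured 8.24, 8.56 and 8.23 in the QDBS arrays, against 7.42, 6.68 and 7.47 in the sham arrays (2.23-fold, adjusted p = 0.00104). QDBS replicate 3 was the highest array of Il1b, and sham replicate 2 the lowest of both genes. Tab2, an adaptor of the kinase TAK1, rose 3.07-fold (adjusted p = 8.66e-05). The NF-kB site core GGGANTTTC, both strands, was in 4 of 41 promoters of this list (9.76%) and in 1.13% of all promoters. Within the list it was in 1 of the 13 that rose and in 3 of the 28 that were not called (10.7%). Egfr, the epidermal growth factor receptor, added to the named genes as a gene of interest to the study, measured 4.68, 4.55 and 4.38 in the QDBS arrays, against 5.42, 5.48 and 5.69 in the sham arrays. Its difference of -0.99 ± 0.13 (adjusted p = 0.000247) was just under the fold threshold, and it was called without QDBS replicate 1, sham replicate 1 or sham replicate 2.

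Of 72 cytokines, chemokines and their receptors 14 rose (19.4%) and 1 fell. Ifngr1, the interferon gamma receptor, measured 8.77, 8.88 and 9.11 in the QDBS arrays, against 8.10, 7.43 and 7.94 in the sham arrays (2.14-fold, adjusted p = 0.000817). Il10rb, a shared chain of interleukin 10 family receptors, rose 4.09-fold (adjusted p = 0.000533). Ccl2, the ligand of Ccr2, fell, at 5.06, 4.81 and 5.35 in the QDBS arrays, against 5.82, 6.54 and 6.17 in the sham arrays (2.15-fold, adjusted p = 0.00205), while Ccr2 rose. Tnf averaged 4.82 in QDBS and 5.23 in sham (adjusted p = 0.147) and Il6 averaged 3.08 in QDBS and 3.26 in sham (adjusted p = 0.274), neither called. Of 40 dendritic cell and antigen presentation genes 8 rose and none fell. The share that rose was above the 9.62% of all genes but below the 21.6% of the brightest bin. The mean level of the list was 7.06 to 7.39 in the QDBS arrays and 6.53 to 6.75 in the sham arrays, in the range of that bin. The count that rose was 10 with arrays centred on the median, and 5 with the 75th percentile as the centre or after quantile normalization. RT1-Bb, a class II chain of the rat major histocompatibility complex, measured 8.76, 9.01 and 9.03 in the QDBS arrays, against 8.35, 6.81 and 8.27 in the sham arrays (2.18-fold, adjusted p = 0.0354). RT1 genes are polymorphic and share sequence, and the call for RT1-Bb was lost without any 1 of the 3 QDBS arrays and without sham replicate 2, so this call is uncertain. Il1b was no longer called without QDBS replicate 3, nor Nfkb1 and Ifngr1 without sham replicate 2, nor Ccl2 without QDBS replicate 2 or sham replicate 2. Nfkb1 and Ifngr1 were not called with arrays centred on the 75th percentile, nor Ccl2 with the median as the centre.

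T cell receptor signalling genes rose in 21 of 58 cases (36.2%) and 1 fell. Ptpn6, the phosphatase SHP-1, measured 9.52, 10.14 and 9.73 in the QDBS arrays, against 8.59, 8.10 and 8.70 in the sham arrays (2.53-fold, adjusted p = 0.000574). Ptprc, the leukocyte common antigen CD45, measured 10.08, 10.02 and 10.30 in the QDBS arrays, against 7.67, 6.16 and 7.69 in the sham arrays (7.79-fold, adjusted p = 6.64e-05). Sham replicate 2 was 1.51 below the next sham array of Ptprc, and without it the difference was 2.45. Nck2, a cytoskeletal adaptor, fell, at 7.23, 6.73 and 7.20 in the QDBS arrays, against 8.32, 8.82 and 8.28 in the sham arrays (2.68-fold, adjusted p = 0.00459), while its relative Nck1 rose 2.52-fold (adjusted p = 8.39e-05). Of the 58, 15 rose without sham replicate 2. MAPK cascades gave 8 of 67 that rose (11.9%, against 9.62% of all genes and 21.6% of the brightest bin). Pak2, a kinase activated by Rac and Cdc42, measured 8.30, 8.30 and 8.38 in the QDBS arrays, against 6.33, 5.91 and 6.35 in the sham arrays (4.37-fold, adjusted p = 2.53e-06). Atf2 and Map3k1 rose 2.07-fold (adjusted p = 0.00077) and 2.29-fold (adjusted p = 0.00183). The MAPK count without sham replicate 2 was 5.

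Cell death regulators rose in 16 of 50 cases (32.0%) and 1 fell. Inhibitors and initiators of death were both among them. Birc6, a giant inhibitor of apoptosis, measured 7.37, 7.29 and 7.34 in the QDBS arrays, against 6.45, 5.55 and 6.46 in the sham arrays (2.26-fold, adjusted p = 0.0031). Casp8, the initiator caspase of death receptors, measured 7.25, 7.34 and 7.48 in the QDBS arrays, against 6.06, 5.78 and 6.17 in the sham arrays (2.56-fold, adjusted p = 2.68e-05). Parp1, a DNA damage sensor, rose 2.59-fold (adjusted p = 0.000346). Bcl2l1, the survival protein BCL-XL of erythroid cells and platelets, fell, at 6.07, 5.85 and 5.93 in the QDBS arrays, against 7.11, 7.62 and 7.14 in the sham arrays (2.53-fold, adjusted p = 0.000259). Of 33 leukocyte integrins, selectins and adhesion ligands 4 rose (12.1%, against 9.62% of all genes and 21.6% of the brightest bin). On that list 1 fell (3.03%, against 1.36% of all genes and 2.84% of the brightest bin). Apbb1ip, the RIAM adaptor of integrin activation, measured 9.24, 9.17 and 9.34 in the QDBS arrays, against 7.95, 7.42 and 7.84 in the sham arrays (2.86-fold, adjusted p = 2.98e-05). Itgb1 and its partner chain Itga4 rose 2.15-fold (adjusted p = 0.000457) and 4.67-fold (adjusted p = 0.00011). F11r, the junctional adhesion molecule JAM-A that platelets carry, fell, at 5.96, 5.57 and 5.63 in the QDBS arrays, against 7.37, 8.38 and 7.44 in the sham arrays (4.03-fold, adjusted p = 0.000478). Atf2 was no longer called without QDBS replicate 3 or sham replicate 2, nor Map3k1 without sham replicate 2. Atf2, Map3k1 and Itgb1 were not called with arrays centred on the 75th percentile.

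Genes of chromosome structure and DNA repair rose in number. Of 57 condensin, cohesin and DNA repair genes 24 rose (42.1%). Ercc3, a helicase of nucleotide excision repair, measured 7.35, 7.99 and 7.62 in the QDBS arrays, against 6.42, 6.05 and 6.56 in the sham arrays (2.48-fold, adjusted p = 0.000311). Smc1a, a cohesin core subunit, measured 7.40, 7.51 and 7.51 in the QDBS arrays, against 5.75, 5.63 and 5.51 in the sham arrays (3.6-fold, adjusted p = 2.35e-06). Rad21, the cohesin kleisin, rose 3.64-fold (adjusted p = 5.98e-05), and Smc6, of the SMC5/6 complex, 6.63-fold (adjusted p = 1.39e-06). Of 56 cell cycle and proliferation genes 5 rose (8.93%, near the share of all genes) and none fell. Rbl2, a retinoblastoma family member of resting cells, measured 7.73, 7.98 and 7.91 in the QDBS arrays, against 6.44, 6.10 and 6.59 in the sham arrays (2.81-fold, adjusted p = 2.59e-05). Pcna, the polymerase clamp, and Mcm4, of the replicative helicase, rose 3.19-fold (adjusted p = 0.000328) and 2.73-fold (adjusted p = 3.91e-05). The difference between these 2 lists was not tested.

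Genes were also grouped by symbol alone. All 7 measured Gimap genes, GTPases of lymphocyte survival, had QDBS arrays above every sham array, as did 4141 of all 18166 genes. Of the 7, 6 were called, with folds between 2.69 and 8.96. Of 247 zinc finger proteins 29 rose (11.7%, near the 9.62% of all genes) and none fell. Of 62 Rab genes 10 rose (16.1%), or 5 without sham replicate 2. Of 318 solute carriers 9 rose (2.83%, below the 9.62% of all genes) and 7 fell (2.20%). Receptor and structural families known from other tissues showed few calls. None of 159 vomeronasal receptors, none of 36 collagens and none of 87 potassium channels was called (limma). At an unadjusted p under 0.05, 1 vomeronasal receptor was higher in QDBS and 45 were lower, 0 collagens were higher and 24 lower, and 1 potassium channel was higher and 50 lower. Of 41 histone genes 1 rose (2.44%).

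Probe sets named for microRNA precursors were dim. Of 363 none rose by the rule and 6 fell (1.65%, near the 1.36% of all genes). These probe sets read the precursor or its host transcript and not the mature microRNA. The 3 with the smallest p-values are given with the mature arms of RefSeq (GRCr8) that their hairpins yield, with the seed (bases 2 to 8) in capitals.
rno-miR-138-5p: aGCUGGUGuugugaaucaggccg
rno-miR-138-2-3p: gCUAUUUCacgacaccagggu
rno-miR-218a-5p: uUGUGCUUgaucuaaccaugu
rno-miR-218a-2-3p: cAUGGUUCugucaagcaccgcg
rno-miR-92b-3p: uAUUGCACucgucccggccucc
rno-miR-92b-5p: aGGGACGGgacgcggugcaguguu
No 2 of these arms share a seed. Mir138-2 (chromosome 19) measured 5.29, 5.41 and 5.46 in QDBS, against 6.37, 6.93 and 6.45 in sham (difference -1.20 ± 0.15, adjusted p = 0.000147). Mir92b (chromosome 2) measured 5.18, 5.0 and 5.35 in QDBS, against 6.29, 7.14 and 6.18 in sham (difference -1.36 ± 0.22, adjusted p = 0.000796). Mir218-2 (chromosome 10) measured 3.71, 3.92 and 3.74 in QDBS, against 4.69, 4.68 and 5.08 in sham (difference -1.03 ± 0.14, adjusted p = 0.000259). The count that fell was 14 without sham replicate 1 and 10 without sham replicate 3.

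The YDBS arrays, whose rats had the same occlusion after hormone injections, shared the sham arrays as their own control. Fitted directly against YDBS, 60 of 18166 genes were lower in QDBS (0.330%) and none was higher. At an unadjusted p under 0.05 (limma), 11 genes were higher in QDBS by a fold over 2 and 164 were lower. Of the 149 named genes, 2 were lower in QDBS than in YDBS, Pltp and Ccl2, and none was higher. Klrk1 averaged 7.66 in QDBS, 7.57 in YDBS and 4.99 in sham blood. Ttr averaged 4.27 in QDBS, 4.23 in YDBS and 7.25 in sham, and Gp9 averaged 9.74 in QDBS, 10.42 in YDBS and 11.17 in sham. In each of these 3 genes, given as examples, the QDBS and YDBS means lay closer to each other than to the sham mean. Other called genes differed from this. Fcer2 averaged 7.37 in QDBS, 6.24 in YDBS and 6.18 in sham, and Cd79b 9.12, 8.24 and 8.02 in that order. Nfe2 averaged 8.96 in QDBS, 9.66 in YDBS and 10.04 in sham. In Fcer2, Cd79b and Nfe2 the YDBS mean lay closer to the sham mean. How many called genes were of either kind was not counted.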

How the data were processed

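Total RNA from the blood of 9 rats was hybridised to Affymetrix Rat Gene 2.0 ST arrays, 1 array per rat and 3 per group. The deposited values are log2 signals that the authors made by RMA in Affymetrix Expression Console 1.1, and the genome build is not given in the sources used here. The labels name a labelling kit for 3' arrays, and its effect was not tested. Scanner files were not used here, so depth is unknown and precision rests on 3 arrays a group.

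Of 30347 transcript clusters, 18511 had 1 symbol in the platform annotation, 575 had several and 11261 were not listed there. The brightest cluster was kept for each of 18166 genes. The test was that of limma 3.58.1 (R 4.3.3), in 1 fit of group means over 9 arrays (6 residual degrees of freedom, moderated by 4.87 prior degrees), without a filter. Called genes had an adjusted p (Benjamini-Hochberg) under 0.05 and a log2 difference over 1. The fit was tested on simulated data with independent normal noise, of equal spread in all arrays for each gene. These data held no outlying array and no group difference in the shape of the distributions. They thus cannot show how sham replicate 2 or the centring acts on the calls. Named genes were, for each list and direction, the 3 brightest called members without overlap between groups, or the brightest member where none was called, the 10 that rose and 5 that fell with the smallest p, and a few genes of interest to the study, of which Nfkb1 and Egfr are reported here. Other genes given with values, such as Cd4, Cd14, Spi1, Csf3r, Lcn2, Pf4, Alb and Nck1, were chosen outside this rule. Their values are given without the checks on arrays left out. The lists share 128 genes. Members and lists were chosen with earlier results of these data known. Nothing says that replicate numbers pair rats, and correlations of same-numbered QDBS and sham arrays after removing group means were -0.17, -0.08 and 0.07, so no pairing was used. Alternatives were other centrings and normalizations, filters, cluster rules, variance models, arrays left out and the methods' t-test.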

Additional observations from a re-analysis of the deposited data

Results flagged for a closer look

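Of the named genes, 2 differed between QDBS and YDBS blood in the direct comparison of the stroke models. Pltp, the phospholipid transfer protein, measured 7.14, 7.30 and 7.03 in QDBS, against 8.59, 8.43 and 7.76 in YDBS, a log2 difference of -1.10 (limma adjusted p = 0.0461). Its sham arrays were at 8.87, 9.0 and 8.68. Ccl2, the chemokine ligand of Ccr2, measured 5.06, 4.81 and 5.35 in QDBS, against 6.31, 6.84 and 6.63 in YDBS, a log2 difference of -1.52 (limma adjusted p = 0.0212), with sham arrays at 5.82, 6.54 and 6.17. QDBS arrays lay below every YDBS and every sham array in both genes.

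Transcript clusters without an entry in the annotation were in no list of the report. In a fit over all clusters, 458 of the 11261 were higher in QDBS and 202 were lower than in sham (5.86% in all). They have no gene name here, and the value is given without more.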

How the results depend on the processing

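The count of genes that rose was 1747 and lay within 1.5 times of this under all alternatives run but 2. It was 3629 without a fold threshold and 449 when the fold of 2 was tested itself (limma's treat). The count that fell was 247 and depended more on scaling. It was 147 with arrays centred on the median, 618 on the 75th percentile and 400 after quantile normalization, 4158 without a fold threshold and 19 with treat. A fit over all transcript clusters counted 458 clusters that fell, 202 of them not listed in the annotation, and 246 genes. Genes that rose made up 87.6% of the calls, 93.7% with median centring, 78.9% after quantile normalization and 67.0% with the 75th percentile. With the methods' t-test after Benjamini-Hochberg 1236 rose and 166 fell. Leaving out 1 array gave 1392 to 1954 genes that rose and 230 to 314 that fell. Without sham replicate 2, 78.1% of the genes that rose were called again. The replicate number as a block gave 1749 and 247, the numbers do not pair the rats, and of the named genes only RT1-Bb lost its call with the block.

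No named gene changed direction under any of these alternatives. Of 149, 31 lost their call without sham replicate 2, 29 with the 75th percentile, 40 with the t-test and 106 with treat.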
